A study of Mus musculus with 12 samples.

Results

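miR-103 and miR-107 are near-identical microRNAs (miRNAs) that lie in introns of different pantothenate kinase genes. They were followed here in fibroblasts of mouse embryos that have or lack ATF6b. The members were the 2 miRNAs that the array names mmu-miR-103 and mmu-miR-107, of 611 mouse miRNAs on the array. The pair was chosen by name and selected on its scaled levels over the 6 groups, which were already known. All changes are therefore given as a description, with standard errors. Where a change is said to be called, this places it against the threshold of a fit over all miRNAs. It is no independent test of the pair, because the same values served to select it. Both miRNAs were detected on 12 of 12 arrays, and both were among the 176 mouse miRNAs that entered the fit.

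The cells were C57BL/6 embryonic fibroblasts of genotype ATF6bWT (wild type) or ATF6bKO (knockout). Each genotype was studied without treatment and after 12 h or 24 h in 2 ug/mL tunicamycin, and every group had 2 arrays, from separate experiments per the series' design text. ATF6b is a membrane-bound transcription factor released by cleavage under endoplasmic reticulum stress, which tunicamycin provokes by blocking N-linked glycosylation. The study asked which miRNAs answer to 12 h of the drug in a way that depends on ATF6b. The labels give neither how the knockout allele was made nor how many embryos or cell lines stand behind a genotype, so genotype and cell line cannot be told apart. No mRNA was measured on these arrays, so neither the genotype nor the host genes could be checked.

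Pantothenate kinases, the products of the Pank genes, carry out the first and rate-controlling step of coenzyme A synthesis. A miRNA from an intron is cut from the transcript of its host gene, and its mature strand then guides Argonaute proteins to messenger RNAs that pair with its seed, the stretch of bases near the 5′ end. miR-103 and miR-107 have been linked to insulin sensitivity and lipid metabolism. They are also known to repress Dicer, the enzyme that cuts miRNA precursors into mature miRNAs.

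The mature strands are shown first because a single base separates them. The sequences are RefSeq's on GRCm38.p6, with the seed (bases 2 to 8) in capitals. The array names carry no arm and were matched to the 3′ arm, the main strand.
miR-103: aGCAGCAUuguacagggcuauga
miR-107: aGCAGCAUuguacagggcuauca
Counted from the 5′ end, the only difference was G22C (the base of miR-103 first), and 22 of 23 bases were identical. The seed was the same, so the pair share their predicted targets by seed. How far a probe for the one also binds the other was not tested.

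Outside the mature strand the precursors differ, and miR-103 comes from a pair of loci. The hairpins below are shown in lower case with the mature 3′ strand in capitals, to show which bases tell the loci apart.
Mir103-1: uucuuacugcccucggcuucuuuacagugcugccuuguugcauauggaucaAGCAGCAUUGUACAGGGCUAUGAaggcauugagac
Mir103-2: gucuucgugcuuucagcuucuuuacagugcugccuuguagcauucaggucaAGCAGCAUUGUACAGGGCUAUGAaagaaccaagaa
Mir107: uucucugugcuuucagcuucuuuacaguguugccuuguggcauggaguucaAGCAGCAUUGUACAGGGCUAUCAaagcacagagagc
Mir103-1 lies within Pank3, with the mature strand at chr11:35782447-35782469 on the + strand. Mir103-2 lies within Pank2, with the mature strand at chr2:131288103-131288125 on the + strand. Mir107 lies within Pank1, with the mature strand at chr19:34820700-34820722 on the - strand. In each case the hairpin and the host gene are on the same strand. Both miR-103 loci give the same mature strand, so the array signal for miR-103 is their sum and cannot be divided between Pank2 and Pank3. The opposite arms differ by G1A between Mir103-1 and Mir103-2, by C16U between Mir103-2 and Mir107, and by both G1A and C16U between Mir103-1 and Mir107, but no opposite arm of the family was among the array's miRNAs.

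Levels are given as log2 of the summed probe signal over the 75th percentile of 93 miRNAs detected on every array, so 0 is the level of that percentile. In untreated wild-type cells miR-103 stood at -1.55 and -1.77 on the 2 arrays. After 12 h of tunicamycin it stood at -2.17 and -2.61, and after 24 h at -2.42 and -2.57. Every treated wild-type array therefore lay below both untreated ones. In untreated knockout cells the values were -1.85 and -1.91, with -1.43 and -1.44 at 12 h and -1.44 and -1.72 at 24 h. Here every treated array lay above both untreated ones, so on this scale the treated arrays departed in opposite directions in the genotypes. Treated and untreated arrays were on different slides, so treatment and slide cannot be told apart. The knockout change of miR-103 was not called, and its sign depended on the scale, as given below.

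miR-107 followed miR-103 in knockout cells but not in wild type. In untreated wild-type cells it stood at -1.93 and -2.14, with -1.84 and -2.17 at 12 h and -2.18 and -2.33 at 24 h. The 12 h arrays overlapped the untreated ones, and the 24 h arrays lay just below them. In knockout cells the values were -1.98 on both untreated arrays, -1.39 and -1.35 at 12 h, and -1.40 and -1.59 at 24 h. All treated knockout arrays lay above the untreated ones.

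**Figure D1:**
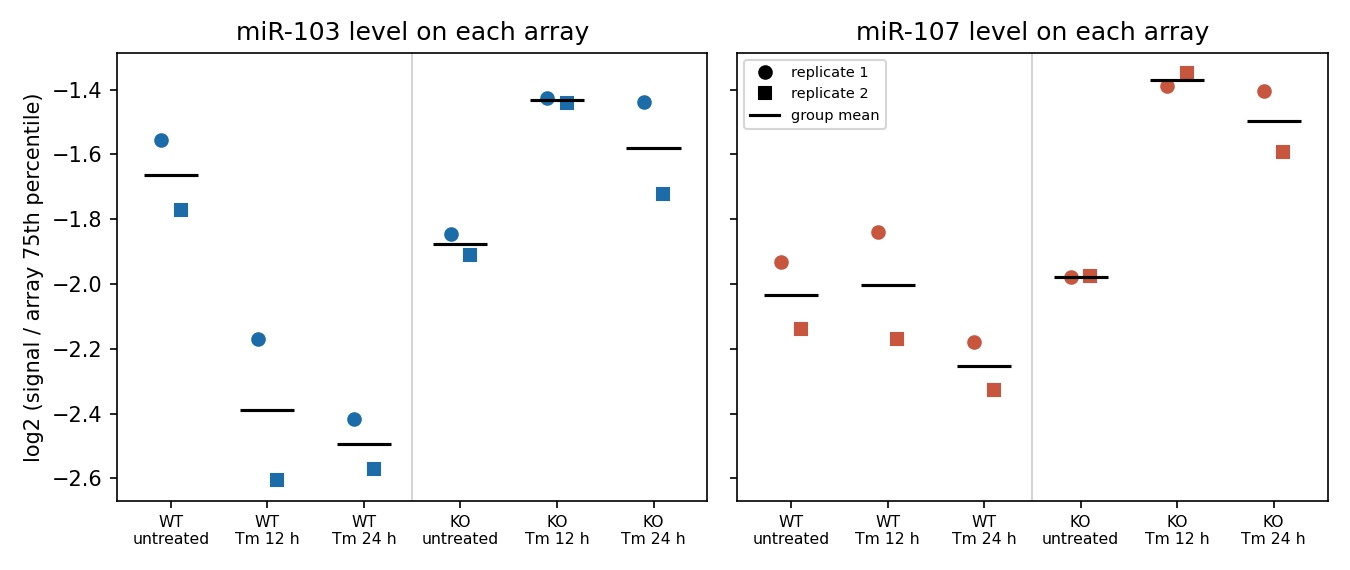
Level of miR-103 (left) and miR-107 (right) on each of the 12 arrays, as log2 of signal over the array's 75th percentile; circles are replicate 1, squares replicate 2, bars group means, and Tm is tunicamycin. In wild type (WT) the treated arrays of miR-103 lie between -2.17 and -2.61, below both untreated arrays, while miR-107 changes little; in knockout (KO) both lie higher after treatment.

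By group mean, miR-103 was highest in knockout cells at 12 h (-1.43 ± 0.01, SD, n = 2), followed by knockout at 24 h (-1.58 ± 0.20) and untreated wild type (-1.66 ± 0.15). These neighbours overlapped. Untreated knockout came next (-1.88 ± 0.04), then wild type at 12 h (-2.39 ± 0.31) and at 24 h (-2.49 ± 0.11), and these last groups overlapped each other. The step from untreated knockout down to treated wild type, 0.51, was the widest between neighbours. For miR-107 the order was knockout at 12 h (-1.37 ± 0.03), knockout at 24 h (-1.50 ± 0.13), untreated knockout (-1.98 ± 0.00), wild type at 12 h (-2.0 ± 0.23), untreated wild type (-2.03 ± 0.15) and wild type at 24 h (-2.25 ± 0.10). Its widest step, 0.48, parted the treated knockout groups from all others, and the next 3 groups overlapped.

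The scaling bears on these values, because the arrays differed in brightness. The 75th percentile ran from 412 to 623 units on 9 arrays. It was 257, 246 and 208 on the 3 dimmest, replicate 2 of wild type at 24 h, of knockout at 12 h and of knockout at 24 h. Before scaling, the summed intensity of miR-103 in wild type was 193 and 158 untreated, 137 and 78.4 at 12 h, and 109 and 43.2 at 24 h. In knockout cells it was 173 and 159 untreated, 166 and 90.5 at 12 h, and 152 and 63.0 at 24 h. Unscaled, miR-103 was thus below both untreated arrays on every treated array of either genotype except replicate 1 of knockout at 12 h, at 166. miR-107 read 158 and 152 in untreated knockout cells, 170 and 96.4 at 12 h, and 156 and 68.9 at 24 h, so 1 of the 4 treated arrays lay above both untreated ones before scaling and 4 of 4 did after it. In bulk RNA, fewer cells of a type and less RNA per cell cannot be told apart.

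Wild-type cells given tunicamycin for 12 h had 1.65-fold less miR-103 than untreated cells, a log2 change of -0.72 ± 0.18 (SE, limma, n = 2 per group). At 24 h the change was -0.83 ± 0.18, a 1.78-fold lower level. Both were called, which means past a Benjamini-Hochberg adjusted p of 0.05 in a limma fit over all 176 miRNAs. Of all tested miRNAs 23.9% were called lower and 14.2% higher at 12 h, and 29.5% and 13.6% at 24 h. Because miR-103 was chosen with these contrasts known, nothing is read from those shares. The median miRNA changed by -0.05 and -0.03, so relative to it miR-103 was lower by 0.67 and 0.80. The change stood at the 23.3rd and 25.6th percentile of all changes, counted from the lowest. All treated arrays lay on the same side of the untreated ones, as for 73.3% and 71.6% of all miRNAs. The call at 12 h was lost without wild type untreated replicate 1 (-0.62) or without wild type 12 h replicate 2 (-0.51). Every call of miR-103 and miR-107 in any comparison was lost with the scanner software's total signal, the authors' unscaled log2 values, quantile normalization, the 75th percentile over all mouse miRNAs and normexp background correction. The change of miR-103 kept its sign under these except with normexp at 12 h, at 0.36, where the median miRNA moved up by 1.03.

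miR-107 changed by 0.03 ± 0.15 at 12 h and by -0.22 ± 0.15 at 24 h in the same cells, and neither was called. The direction at 12 h was not settled: it was -0.11 with the scanner software's total signal, -0.18 with quantile normalization and -0.09 with each array scaled to the mean log2 of the 93 miRNAs.

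In knockout cells miR-107 was called higher, by 0.61 ± 0.15 at 12 h (1.52-fold) and by 0.48 ± 0.15 at 24 h (1.39-fold). miR-103 changed by 0.44 ± 0.18 and 0.30 ± 0.18 and was not called at either time. Of all tested miRNAs 21.6% were called higher and 3.98% lower at 12 h, and 25.6% and 5.11% at 24 h. The treated arrays did not overlap the untreated ones for either member, as for 71.6% and 57.4% of all miRNAs. The median miRNA was itself higher, by 0.25 and 0.15, which left 0.36 and 0.33 for miR-107 and 0.20 and 0.15 for miR-103. These increases depended on the scale. With the mean log2 of the 93 miRNAs in place of their 75th percentile, an alternative chosen after the data were seen, miR-107 changed by 0.13 and 0.10 and miR-103 by -0.04 and -0.08. On that scale 24 miRNAs were called higher and 42 lower at 12 h, against 38 and 7 on the percentile scale, and 28 and 41 at 24 h, against 45 and 9. In the authors' unscaled log2 values miR-107 changed by -0.28 and -0.59. The 12 h call of miR-107 was lost without any 1 of the 4 knockout arrays in that contrast, at 0.59 to 0.63. The 24 h call was lost without any of 8 arrays, at 0.38 to 0.57: the 4 of the contrast, both of knockout at 12 h and both of wild type at 24 h.

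Markers of another cell type moved with the treated knockout arrays. Of 7 epithelial miRNAs on the array, 0 were detected on any wild-type or untreated knockout array. In treated knockout cells 4 were detected on each replicate 1 array and 3 on each replicate 2 array. Their summed scaled signal was 2.55 and 3.65 at 12 h and 2.52 and 3.11 at 24 h. The family members miR-141, miR-200b and miR-200c, known for holding cells in an epithelial state, were detected on all 4 of these arrays, and miR-429, miR-203 and miR-205 on none. Their part in the higher levels of miR-103 and miR-107 was not tested.

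**Figure D2:**
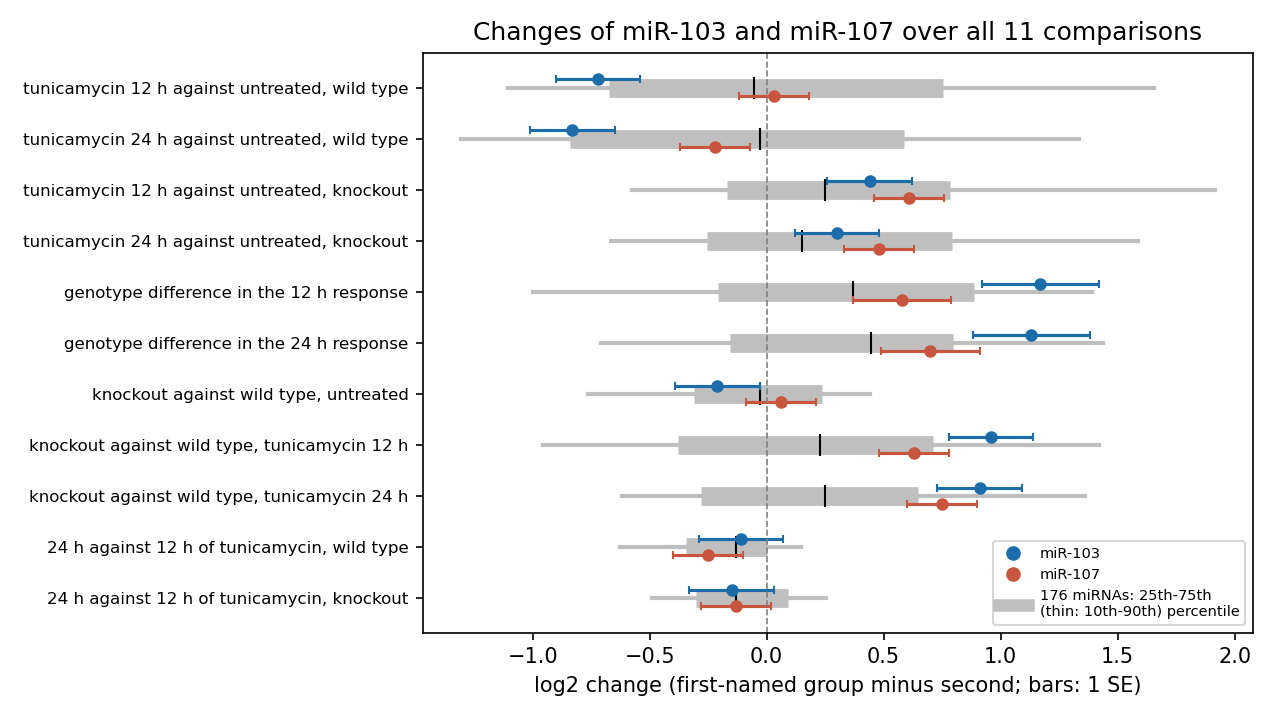
Log2 change of miR-103 (blue) and miR-107 (red) in each of the 11 comparisons, with bars of 1 SE; the grey bands give the spread of all 176 tested miRNAs (percentiles as in the key) and the black tick their median. miR-103 falls below the median in treated wild type and lies above the thick band in both response differences.

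The difference in response between genotypes, the knockout change minus the wild-type change, was 1.17 ± 0.25 for miR-103 at 12 h and 1.13 ± 0.25 at 24 h, and both were called. For miR-107 it was 0.58 ± 0.21 and 0.70 ± 0.21, and neither was called. Arrays scanned together deviated together, and with the replicate block or with scan as a random block both values for miR-107 were called too, so the calls do not part the members. Of all miRNAs 22.2% were called higher and 2.27% lower at 12 h, and 19.9% and 0.568% at 24 h. The median difference over all miRNAs was 0.37 at 12 h and 0.44 at 24 h, so miR-103 exceeded it by 0.80 and 0.68, and miR-107 by 0.21 and 0.25. With the mean log2 scale the values for miR-103 were 0.81 and 0.78 and were no longer called, and the split of calls was 21 higher and 11 lower at 12 h and 11 and 6 at 24 h, against 39 and 4, and 35 and 1. Without the 3 dimmest arrays they were 1.18 and 1.19, also not called. The 12 h call was lost without wild type untreated replicate 1 (1.06). The 24 h call was lost without that array (1.02), either untreated knockout array (1.16 and 1.1), knockout 24 h replicate 1 (0.99) or wild type 24 h replicate 2 (1.05). Both contrasts share the untreated arrays, so they are not separate evidence.

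Compared at the same time point, treated knockout cells held more of both miRNAs than treated wild-type cells. For miR-103 the log2 difference was 0.96 ± 0.18 at 12 h (1.94-fold) and 0.91 ± 0.18 at 24 h (1.89-fold). For miR-107 it was 0.63 ± 0.15 (1.55-fold) and 0.75 ± 0.15 (1.69-fold). All 4 were called. Of all miRNAs 29.5% were called higher in knockout and 8.52% lower at 12 h, and 27.3% and 7.39% at 24 h. No array of the knockout groups overlapped its wild-type counterpart for either miRNA, which also held for 69.3% of all miRNAs at 12 h and 59.1% at 24 h. The median miRNA differed by 0.23 and 0.25. On the mean log2 scale 37 were called higher and 33 lower at 12 h, against 52 and 15, and 31 and 22 at 24 h, against 48 and 13, and miR-107 lost its 12 h call at 0.34. That call was also lost without knockout 12 h replicate 1 (0.65) or 2 (0.62) or wild type 12 h replicate 2 (0.47). With normexp both members turned lower in knockout at 12 h, at -0.09 and -0.13, as did miR-107 in the authors' unscaled log2 values, at -0.10.

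Each scan of treated arrays held 1 wild-type and 1 knockout array at each time, so the genotypes could also be compared within a scan. For miR-103 the difference was 0.75 and 1.16 at 12 h in the first and second scan of treated arrays, and 0.98 and 0.85 at 24 h. For miR-107 it was 0.45 and 0.82 at 12 h, and 0.78 and 0.73 at 24 h. The sign was thus the same in both scans for both miRNAs. Wild type and knockout lay in different rows of every slide, so row and genotype cannot be told apart.

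Without tunicamycin the genotypes were close. miR-103 was -0.21 ± 0.18 in knockout relative to wild type and miR-107 0.06 ± 0.15, and neither was called, against 1.7% of all miRNAs called higher and 9.66% lower. The arrays did not overlap for miR-103, as for 47.2% of all miRNAs, and they did for miR-107. Within scans the difference was -0.29 and -0.14 for miR-103, and -0.05 and 0.16 for miR-107.

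Between 12 h and 24 h little was seen. miR-103 changed by -0.11 ± 0.18 in wild type and by -0.15 ± 0.18 in knockout, with overlapping arrays. miR-107 changed by -0.25 ± 0.15 and -0.13 ± 0.15, with arrays that did not overlap, as for 29.5% and 32.4% of all miRNAs. None of the 4 was called by limma. Of all miRNAs 1.14% were called higher in wild type and 0.568% in knockout, and 0% lower in either, with 12 and 16 at an unadjusted p under 0.05. The median miRNA changed by -0.13 in both genotypes.

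Since both miRNAs were read on the same array, their difference needs no scaling between arrays. Its absolute size has no meaning, because different probes bind with different strength, and only its change between groups is described. In untreated wild-type cells miR-103 minus miR-107 was 0.38 and 0.36. At 12 h it was -0.33 and -0.44, and at 24 h -0.24 and -0.25. All 4 treated wild-type arrays lay below both untreated ones, by 0.75 at 12 h and 0.61 at 24 h on average. In knockout cells the values were 0.13 and 0.07 untreated, -0.04 and -0.09 at 12 h, and -0.03 and -0.13 at 24 h. They too lay below the untreated arrays, by 0.16 and 0.18. miR-103 was therefore lower relative to miR-107 after tunicamycin on every treated array of either genotype. Among single miRNAs 57.4% to 73.3% did not overlap between treated and untreated arrays, depending on genotype and time. How often other pairs of miRNAs part in this way was not counted.

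**Figure D3:**
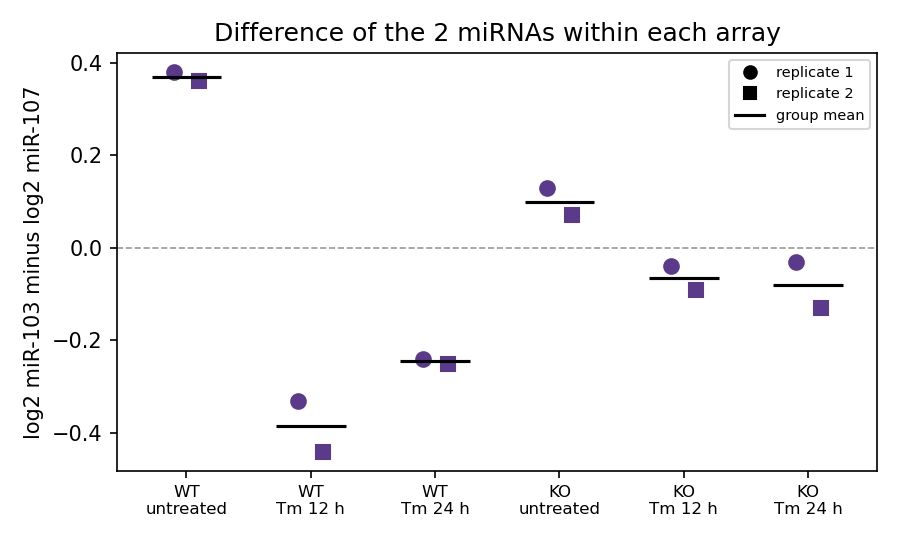
Log2 of miR-103 minus log2 of miR-107 on each array, a quantity that a scaling factor per array does not touch; circles are replicate 1, squares replicate 2 and bars group means, with genotype and treatment on the x axis. Wild type moves from 0.37 ± 0.01 untreated to -0.38 ± 0.07 and -0.24 ± 0.01 after tunicamycin, and knockout from 0.10 ± 0.05 to -0.06 ± 0.04 and -0.08 ± 0.07 (SD, n = 2).

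The untreated arrays shared 1 slide and the treated arrays another. Treatment and slide therefore cannot be told apart, for the within-array difference as for the levels. The difference already stood lower in untreated knockout than in untreated wild-type cells, at 0.10 ± 0.05 against 0.37 ± 0.01 (SD, n = 2), and those arrays shared a slide. The change kept its sign with the software's total signal, normexp background correction, quantile normalization and the brighter probe alone. It ranged over these from -0.86 to -0.31 at 12 h and from -0.56 to -0.30 at 24 h in wild type.

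Each miRNA was read by a bright and a dim probe, each on 10 spots per array, and none of these spots was saturated. The bright probe of miR-103, called P1341 here, read 37.4 to 159 units, with all spots well above background on 12 arrays. Its dim probe, P1342, read 5.72 to 34.2 units, with all spots above background on 5 arrays and no spot on 3. From untreated to treated wild type P1341 changed by -0.68 and -0.78 at 12 h and 24 h, and P1342 by -0.96 and -1.08. In knockout cells P1341 changed by 0.43 and 0.34, and P1342 by 0.52 and 0.04. P1342 had no spot above background on replicate 2 of wild type at 12 h, of wild type at 24 h and of knockout at 12 h, and 1 of 10 on replicate 2 of knockout at 24 h. Its changes therefore rest in part on signal not above background, and that of 0.04 shows no direction. The direction of miR-103 is carried by P1341.

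The bright probe of miR-107, P1420, read 40.3 to 136 units and the dim one, P1421, 10.9 to 37.4 units. P1421 had all spots above background on 6 arrays, 5 of 10 on replicate 2 of knockout at 12 h, and none on replicate 2 of wild type and of knockout at 24 h. In wild type P1420 changed by 0.00 and -0.22 and P1421 by 0.13 and -0.20. In knockout cells the changes were 0.59 and 0.46 for P1420, and 0.67 and 0.56 for P1421. P1420, above background on every array, carries the higher knockout level of miR-107, and it did not show the wild-type fall of miR-103 at 12 h. The 24 h changes of P1421 rest in part on signal not above background.

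**Figure D4:**
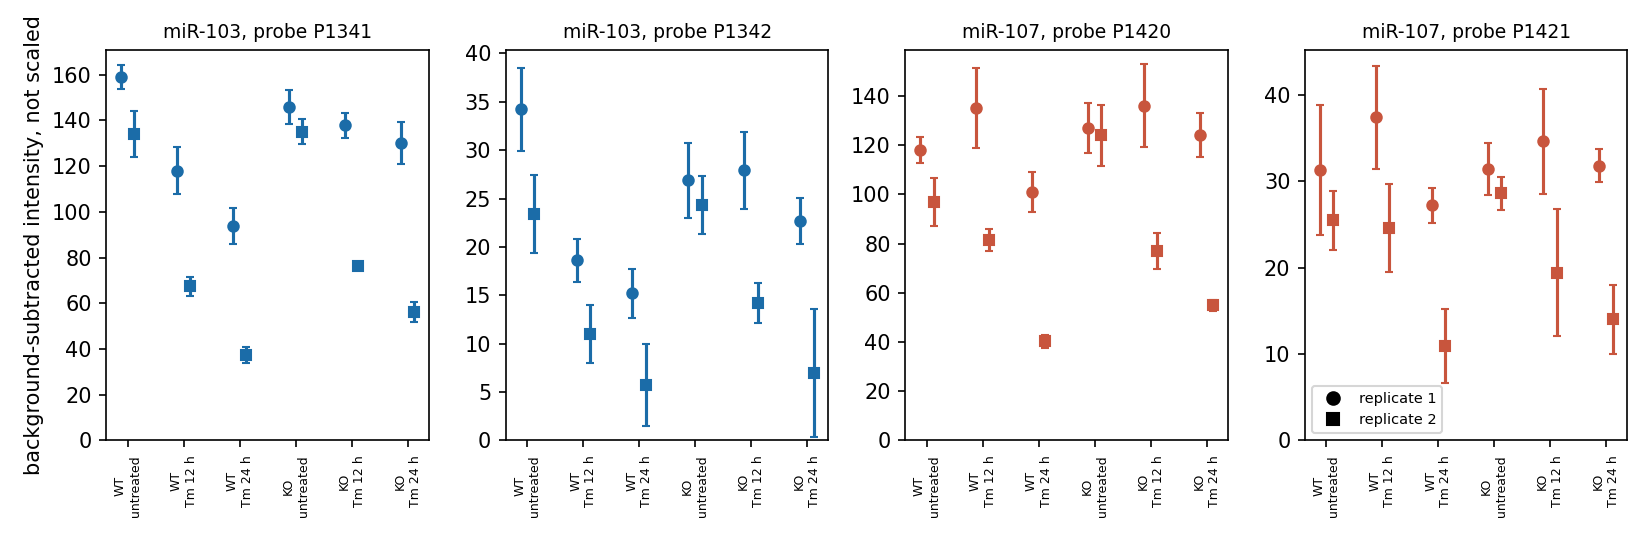
Background-subtracted intensity of the 4 probes on each array before scaling, as the mean over spots with bars of 1 SD over spots; circles are replicate 1 and squares replicate 2, and each panel has its own axis from 0. P1341 and P1420 carry most of the signal, and replicate 2 of the treated groups is dimmer for all 4 probes.

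Across the 6 group means, 124 miRNAs above the floor on all arrays were ranked by likeness to each member (Pearson r, a description over groups that share slides and scale). Closest to miR-103 were miR-324-5p (0.977), miR-361 (0.971), miR-24 (0.965), miR-23b (0.947) and miR-143 (0.941). miR-143 and miR-23b moved further than miR-103: miR-143 went from -0.75 in untreated wild type to -2.64 and -2.88 after treatment, and miR-23b from 0.12 to -1.66 and -1.60. miR-24 and miR-143 were on the list of fibroblast markers, of which 10 were detected on each treated wild-type array and 11 or 12 of 12 on the others. The list's summed scaled signal was 51.6 to 53.7 in treated wild type, 55.8 to 66.5 in untreated wild type and 52.1 to 65.9 in knockout, and its part in the levels was not tested. That sum is dominated by miR-21, at 28.6 to 32.6 in untreated and 27.3 to 33.5 in treated wild type. Of the 12 markers 7 lay below both untreated arrays on every treated wild-type array, namely miR-24, miR-143, miR-22, miR-214, miR-199a-5p, miR-199a-3p and miR-31, the last undetected after treatment. miR-21, miR-29a, miR-27a and miR-125b-5p did not, and miR-145 was undetected in wild type. Treated and untreated wild-type arrays did not overlap, in either direction, for 73.3% of all miRNAs at 12 h and 71.6% at 24 h. The share of all miRNAs that lay below at both times was not counted, so nothing is read from the 7.

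miR-107 was only 30th in likeness to miR-103 (r = 0.80 over 6 groups, 0.81 over 12 arrays). Closest to miR-107 were miR-500 (0.943), miR-23a (0.907), miR-98 (0.896), miR-155 (0.854) and miR-151-5p (0.834), and miR-103 was 11th. The lists of the 5 nearest shared no miRNA. The median r over the 124 was 0.36 for miR-103 and 0.31 for miR-107, with 29 and 10 miRNAs above 0.8.

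**Figure D5:**
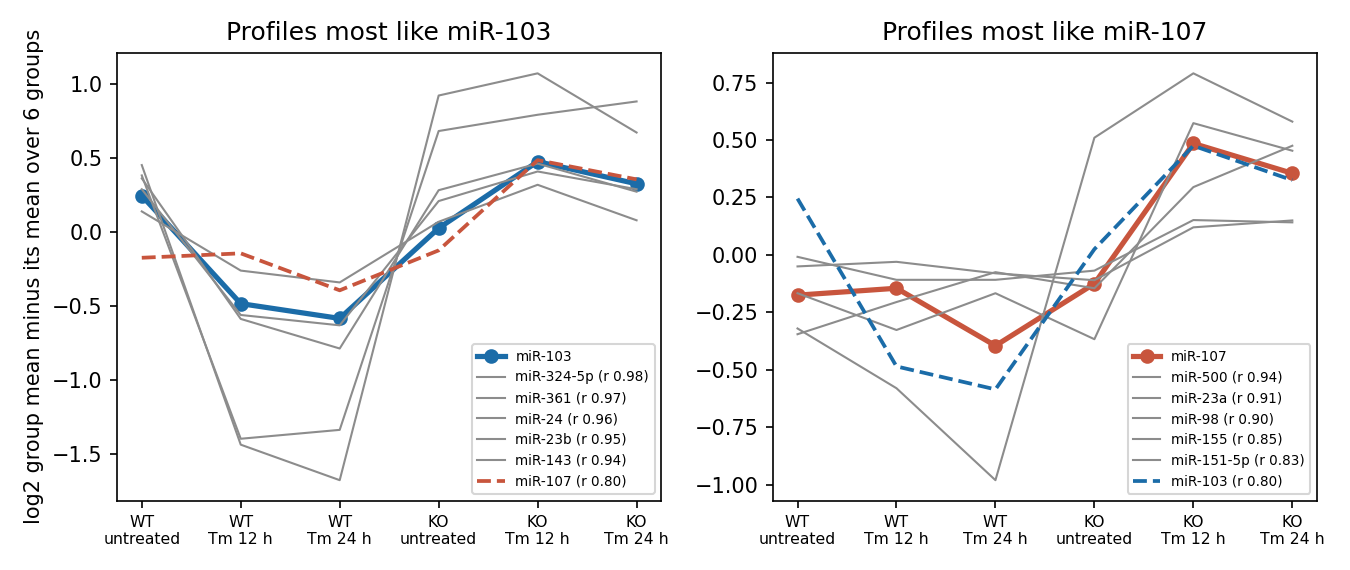
Log2 group means minus their mean over the 6 groups for miR-103 (left, blue) and miR-107 (right, red), with the 5 miRNAs of highest r in grey and the other member dashed. The profiles of the pair run together in knockout (KO) and part in wild type (WT), where miR-103 drops after tunicamycin (Tm).

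The wider group of miR-15 and miR-107 holds miRNAs that carry the same core of bases near the 5′ end, placed 1 base later than in miR-103 and miR-107. They are shown for that offset, with bases 2 to 8 in capitals, for the 4 that were tested.
miR-15a: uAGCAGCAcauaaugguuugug
miR-15b: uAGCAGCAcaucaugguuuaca
miR-16: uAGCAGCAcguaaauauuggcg
miR-322: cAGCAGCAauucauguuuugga
These miRNAs restrain cell-cycle genes. Of 7 listed miRNAs, miR-195, miR-497 and miR-503 were not tested. All 4 tested members were called higher in wild type at 12 h and at 24 h, where miR-103 was called lower. Their median changes were 1.5 and 1.36, against -0.05 and -0.03 over all miRNAs. Of all miRNAs 14.2% and 13.6% were called higher. The list's calls became 3 and 2 with the software's total signal, 3 and 3 with quantile normalization, and 0 with the unscaled values, normexp and the percentile over all mouse miRNAs, with every median above 0. miR-15b, from an intron of Smc4, changed by 1.60 ± 0.13 at 12 h (limma adjusted p = 5.08e-05), and miR-16 by 1.41 ± 0.13 (adjusted p = 0.000152). This list and those below were chosen with earlier results of these data known. Adjusted p-values printed for their members are therefore a description and no independent test. In knockout cells 3 of 4 were called higher at each time, beside 21.6% of all miRNAs at 12 h and 25.6% at 24 h. The knockout calls became 1 at each time on the mean log2 scale and with quantile normalization, and 1 and 0 with the total signal. They became 0 with the unscaled values, normexp and the percentile over all mouse miRNAs. The knockout medians were 0.75 and 0.64. They were 0.27 and 0.26 on the mean log2 scale, and -0.11 and -0.21 for the 3 with unscaled log2 values on all arrays. miR-322 changed by 0.46 ± 0.30 and 0.27 ± 0.30 and was not called. All 4 stood lower in treated knockout than in treated wild-type cells at either time, and 3 of them were called. The medians were -0.82 and -0.72, the opposite sign to miR-103 and miR-107. Of all miRNAs 8.52% were called lower at 12 h and 7.39% at 24 h. How these genotype calls of the list depend on the processing was not examined. The 4 passed the same detection filter, and miR-322 was detected on 8 of 12 arrays.

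let-7 miRNAs are also reported to target Dicer. All 9 listed members were tested. In wild type 3 were called higher at 12 h and 4 at 24 h, with medians over the list of 0.23 and 0.28. They were led by let-7b at 0.92 ± 0.19 and 1.06 ± 0.19 (limma adjusted p = 0.00628 and 0.00268). These shares stand beside 14.2% and 13.6% of all miRNAs called higher. The calls became 1 and 1 with the total signal or quantile normalization, 1 and 3 on the mean log2 scale, and 0 with the unscaled values, normexp and the percentile over all mouse miRNAs. In knockout cells 5 were called higher at 12 h and 7 at 24 h, with medians over the list of 0.55 and 0.69. They were led at 12 h by miR-98 at 0.95 ± 0.20 (limma adjusted p = 0.00952). Of all miRNAs 21.6% and 25.6% were called higher in knockout. Every knockout call in this list was lost with the total signal, quantile normalization, the unscaled values, normexp and the percentile over all mouse miRNAs, and 0 and 1 were left on the mean log2 scale. None was called lower in these 4 comparisons. The medians were 0.07 and 0.31 in knockout on the mean log2 scale and -0.34 and -0.38 in the unscaled log2 values, and in wild type the sign turned with normexp at 12 h (-0.04) and in the unscaled values at 24 h (-0.13).

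Other miRNAs in introns of protein-coding genes were listed for comparison. Of 11 listed, 10 were tested, 2 of them, miR-15b and miR-16, named above. miR-16 comes from 2 loci, so its array signal is their sum and cannot be divided between them. Whether both loci lie in introns of protein-coding genes was not examined, so its place in this list is uncertain. In wild type 6 were called higher and 1 lower at 12 h, and 5 higher and 1 lower at 24 h. Of all miRNAs 14.2% were called higher and 23.9% lower at 12 h, and 13.6% and 29.5% at 24 h. The calls of higher level became 4 and 2 with the total signal, 3 and 3 with quantile normalization, and 0 with the unscaled values, normexp and the percentile over all mouse miRNAs. The one called lower at both times was miR-152, from an intron of Copz2, at -0.87 ± 0.28 and -1.33 ± 0.28 (limma adjusted p = 0.0416 and 0.00639). In wild type no lower call was left at either time with the total signal, normexp or the percentile over all mouse miRNAs. At 12 h none was left with quantile normalization or with scan as a random block. In knockout cells 6 were called higher and 1, miR-342-3p, lower at each time. The largest change was that of miR-106b, from an intron of Mcm7, at 2.37 ± 0.17 and 2.05 ± 0.17 (limma adjusted p = 2.56e-05 and 7.4e-05). In knockout 21.6% of all miRNAs were called higher and 3.98% lower at 12 h, and 25.6% and 5.11% at 24 h. The list's medians were 0.88 and 0.57 in wild type and 0.75 and 0.63 in knockout, above the medians over all miRNAs. The knockout calls of higher level became 2 and 2 with the total signal, 2 and 1 with quantile normalization and 3 and 3 on the mean log2 scale. They became 1 and 0 with the percentile over all mouse miRNAs, and 0 with the unscaled values and normexp. No knockout call of lower level was left at either time with the total signal, normexp or the percentile over all mouse miRNAs. With quantile normalization 1 and 0 were left. In knockout the medians were 0.27 and 0.25 on the mean log2 scale and -0.04 and 0 in the unscaled values.

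On each array 114 to 189 mouse miRNAs were detected, and the number of arrays limits the precision. By brightness miR-103 ranked between 48th and 82nd and miR-107 between 47th and 72nd among the 611 mouse miRNAs on the array. They took 0.145% to 0.304% and 0.177% to 0.312% of the summed signal of detected mouse miRNAs. The lists of blood, neural, and endothelial and liver markers had 0 members detected on any array. The muscle list had at most 1 of 4, miR-206, at a summed scaled signal of 0.084 or less. The pluripotency list had at most 1 of 6, at 0.107 or less.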

How the data were processed

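miRNAs were measured on 12 one-colour Agilent arrays with Cy3-labelled total RNA, per the labels' protocols. The authors deposited scanner tables of spot intensity, for which the submitters' processing notes name Agilent Feature Extraction 10.7.1.1. The authors also deposited log2 values, which match log2 of the total signal per miRNA in the scanner tables (gap at most 1.18e-06) and are not scaled between arrays. From the background-subtracted intensity, spots marked as outliers were dropped, spots were averaged per probe and probes summed per miRNA. Values were scaled to the array's 75th percentile (taken over 93 mouse miRNAs detected on every array), floored at 0.0191 and put on the log2 scale. The 715 control spots per array were left out.

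The 6 group means were fitted with limma 3.58.1 in R 4.3.3 (6 residual and 1.65 prior degrees of freedom) over 176 mouse miRNAs, those found on both arrays in any group. There were 11 comparisons. p-values were adjusted by Benjamini-Hochberg, and the code was tested on simulated data. p-values rest on the spread between 2 arrays a group. Arrays scanned together deviated together, so p-values can be too small. Between groups that shared scans they can instead be too large. Knockout against wild type at 12 h of tunicamycin gave 67 calls. It gave 78 with the replicate block and 85 with scan as a random block. Because the files hold no mean signal, normexp was run on median signals with an offset of 50.

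The members, the lists of related miRNAs and the cell type markers were chosen with earlier results of these data known. Named miRNAs were the members, the 5 most like each, the group of miR-15 and miR-107, and up to 4 of the let-7 and intronic lists by largest change. Alternatives covered the signal, scaling, floor, filter, blocks and each array left out. Host genes were matched by gene spans in RefSeq, and placement in introns is background.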

Additional observations from a re-analysis of the deposited data

Results flagged for a closer look

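The tunicamycin response of miR-103 differed between knockout and wild-type cells by 1.17 on the log2 scale at 12 h and by 1.13 at 24 h. They are listed here because the difference between the genotypes' responses passed the threshold of the limma fit. So did 22.2% of all miRNAs at 12 h and 19.9% at 24 h in the same direction. All 4 treated wild-type arrays lay below both untreated ones, and all 4 treated knockout arrays lay above theirs. Before scaling, 7 of the 8 treated arrays lay below both untreated arrays of their genotype, and the other, knockout 12 h replicate 1, lay between them. As miR-103 was chosen with this contrast known, passing the threshold is no independent test, and the values are a description. No group of 4 or more arrays was available to look for single outlying arrays.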

How the results depend on the processing

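None of the 10 calls of the members held under 5 alternatives. With the software's total signal miR-103 stood at -0.98 and -1.21 in wild type at 12 h and 24 h, 1.34 and 1.15 for the response differences, and 1.08 and 0.88 for knockout against wild type, and turned to -0.06 in knockout at 24 h. miR-107 stood at 0.53 and 0.20 in knockout, and 0.65 and 0.88 for knockout against wild type, and turned to -0.11 in wild type at 12 h. With the authors' unscaled log2 values miR-103 stood at -0.80 and -1.42 in wild type, 0.36 and 0.57 for the response differences, and 0.33 and 0.54 for knockout against wild type, and turned to -0.44 and -0.85 in knockout. miR-107 turned to -0.28 and -0.59 in knockout, -0.34 for the 12 h response difference and -0.10 for knockout against wild type at 12 h, and stood at 0.54 at 24 h. With quantile normalization miR-103 stood at -0.80 and -0.75 in wild type, 0.96 and 0.86 for the response differences, and 0.65 and 0.55 for knockout against wild type, and turned to 0.05 for 24 h against 12 h in wild type. miR-107 stood at 0.38 and 0.26 in knockout, and 0.53 and 0.43 for knockout against wild type, and turned to -0.18 in wild type at 12 h and -0.02 for untreated knockout against wild type. With the 75th percentile over all mouse miRNAs miR-103 stood at -0.75 and -0.89 in wild type, 0.97 and 0.96 for the response differences, and 0.61 and 0.60 for knockout against wild type. miR-107 stood at 0.39 and 0.25 in knockout, and 0.29 and 0.44 for knockout against wild type, and turned to -0.09 untreated. With normexp miR-103 turned to 0.36 in wild type at 12 h and -0.09 for knockout against wild type at 12 h, and stood at -0.34 in wild type at 24 h, 0.08 and 0.74 for the response differences, and 0.56 for knockout against wild type at 24 h. miR-107 stood at 0.54 and 0.48 in knockout and 0.51 for knockout against wild type at 24 h, and turned to -0.13 for the 12 h response difference, -0.13 for knockout against wild type at 12 h and -0.01 untreated. The causes were not tested.

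On the mean log2 scale miR-103 turned to -0.04 and -0.08 in knockout and lost its response differences at 0.81 and 0.78. miR-107 turned to -0.09 in wild type at 12 h and was no longer called at 0.13 and 0.10 in knockout and 0.34 for knockout against wild type at 12 h. Leaving out the 3 dimmest arrays leaves 3 groups with a lone array assumed to vary like the others. miR-103 then stood at -0.72 and -0.75 in wild type, 1.18 and 1.19 for the response differences and 0.98 for knockout against wild type at 24 h. miR-107 stood at 0.59 and 0.57 in knockout, and 0.62 and 0.78 for knockout against wild type. None of these was called any longer, and the cause was not tested. Halving the floor, or taking scan as a random block, ended the call of miR-107 at 0.48 in knockout at 24 h. The brighter probe alone gave a call for miR-103 at 0.44 in knockout at 12 h, and the filter to miRNAs detected on all 12 arrays gave one for the 24 h response difference of miR-107 at 0.70. The within-array difference changed in wild type by -0.86, -0.31 and -0.62 at 12 h and by -0.54, -0.30 and -0.56 at 24 h with the total signal, normexp and quantile normalization, and by -0.56 at 24 h with the brighter probe. In knockout it changed by -0.10 and -0.22 at 12 h with normexp and quantile normalization, and by -0.26 and -0.08 at 24 h with the total signal and normexp.

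Replicate numbers marked scans within a slide: deviations of same-numbered arrays correlated at 0.48 for untreated groups and 0.76 to 0.91 for treated groups, but at -0.38 to -0.05 between slides. Within a slide the numbers thus go with the scan, while between slides, where every comparison with untreated cells lies, they pair nothing. The arrays of a group also came from separate experiments, so scan and experiment cannot be told apart in these deviations. With the replicate block miR-103 gained a call at 0.44 in knockout at 12 h and miR-107 at 0.58 and 0.70 for the response differences, and scan as a random block gave the same calls for miR-107 at 0.58 and 0.70. Leaving out 1 array at a time, miR-103 ranged from -0.94 to -0.51 and from -0.94 to -0.72 in wild type, from 0.95 to 1.39 and from 0.99 to 1.27 for the response differences, and from -0.32 to 0.11 for 24 h against 12 h in wild type. miR-107 ranged from -0.13 to 0.20 in wild type at 12 h, from 0.59 to 0.63 and from 0.38 to 0.57 in knockout, from 0.41 to 0.74 and from 0.59 to 0.80 for the response differences, from -0.05 to 0.16 for untreated knockout against wild type, and from 0.47 to 0.80 at 12 h. Over the 9 comparisons between treatments or genotypes limma called 20 to 76 miRNAs, against 3 to 26 with the total signal, at most 2 with the unscaled values or normexp, 11 to 49 with quantile normalization, at most 12 with the percentile over all miRNAs, 18 to 48 of those detected on all arrays, 13 to 60 without the 3 dimmest arrays, 17 to 80 on the mean log2 scale, 37 to 96 with the replicate block and 39 to 87 with scan as a random block. Signal over background limits the dim probes P1342 and P1421 most.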
